A study of Mus musculus with 9 samples.

Results

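Ncam1, Ncam2, Chl1, L1cam, Nrcam, Nfasc, Cntn1, Cntn2, Cntn3 and Cntn4 encode neural adhesion molecules of the immunoglobulin superfamily, and their expression was compared between 3 cell populations sorted from the back skin of newborn mice. The 10 genes were taken by the symbol of the platform annotation, out of 18193 genes with a probe set of their own. They were measured by 34 of the 34945 probe sets with 1 symbol. The main probe set of a gene was the one with the highest mean over the 9 arrays, so that the main probe sets were chosen by these mean levels, which are given as a description. The list itself was drawn up with earlier results of these data known, among them the high level of Chl1 in R3. The Chl1 differences that involve R3 are therefore given without a test. Counts of called members in comparisons with R3 include Chl1, and the main ones are also given without it. Since the whole list was drawn up with such knowledge, all shares of called members are a description, also without Chl1.

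The R3 gate took GFP+CD133+ cells, papilla cells of guard, awl and auchene hairs per the labels. R2 took GFP-CD133+ cells, called papilla cells of zigzag hairs. R1 took GFP-CD133- cells, called the remaining dermal pool without papilla. Each gate was sorted from the same 3 mice, numbered 2, 4 and 5, at postnatal day 2, and gave 1 array per mouse. The dermal papilla is the mesenchymal cluster at the base of the hair follicle that instructs its growth, Prom1 encodes CD133, and similar mice are known to carry GFP as a reporter of Sox2. The labels used here name neither the strain nor the construct behind GFP. The gates are bulk sorts, in which fewer cells of a type and less RNA per cell cannot be told apart.

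NCAM proteins, the L1 family (L1cam, Chl1, Nrcam and Nfasc) and the contactins bind one another across and along cell membranes and guide axon growth, bundling and the contact between axons and glia. NCAM and L1 proteins span the membrane, although NCAM proteins also have lipid-anchored forms, and the L1 family binds ankyrins of the membrane skeleton. Contactins lack a cytoplasmic part and are held by a lipid anchor. Several of these genes are also known from Schwann cells, the glia of skin nerves, and NCAM1 from condensing mesenchyme.

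In the RefSeq annotation (GRCm38.p6), Cntn3, Chl1 and Cntn4 lie on chromosome 6. No protein-coding gene stands between Cntn3 and Chl1, and Cntn6 alone stands between Chl1 and Cntn4. Cntn2 and Nfasc are direct neighbours on chromosome 1. The promoter table held windows for 9 of the 10 genes, each of 300 bases, from 250 before to 50 after an annotated start. The windows of the 4 genes with the largest rises in R3 over R2 are printed below, at the most upstream start where a gene has several. They allow the start regions of genes picked by this rise to be compared, although the 4 genes differed in direction between R2 and R1. Capitals mark matches on either strand to the motif ACAAAG, its variant ACAATG, the motif TCAAAG or its variant TCAATG, the core bound by Sox and Tcf/Lef factors, of which no 2 overlapped in these windows.
Chl1, chr6:103510626-103510925, plus strand: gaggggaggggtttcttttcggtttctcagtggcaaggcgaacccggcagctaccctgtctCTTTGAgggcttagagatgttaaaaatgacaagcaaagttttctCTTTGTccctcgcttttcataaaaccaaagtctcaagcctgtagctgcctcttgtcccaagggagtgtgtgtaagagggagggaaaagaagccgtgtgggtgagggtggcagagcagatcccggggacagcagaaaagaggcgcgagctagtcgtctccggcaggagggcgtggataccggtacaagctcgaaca
Cntn1, chr15:92050915-92051214, plus strand: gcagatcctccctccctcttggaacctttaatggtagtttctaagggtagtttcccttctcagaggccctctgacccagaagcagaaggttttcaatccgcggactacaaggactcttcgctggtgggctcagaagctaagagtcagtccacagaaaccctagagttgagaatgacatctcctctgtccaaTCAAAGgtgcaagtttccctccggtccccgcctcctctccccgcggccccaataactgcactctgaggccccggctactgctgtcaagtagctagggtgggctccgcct
L1cam, chrX:73880785-73881084, minus strand: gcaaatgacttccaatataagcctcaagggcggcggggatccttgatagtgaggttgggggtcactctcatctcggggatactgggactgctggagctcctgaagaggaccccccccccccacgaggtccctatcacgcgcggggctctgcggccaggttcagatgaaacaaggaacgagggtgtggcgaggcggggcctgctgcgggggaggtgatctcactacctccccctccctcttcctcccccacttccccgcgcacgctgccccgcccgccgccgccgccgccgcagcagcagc
Ncam2, chr16:81200447-81200746, plus strand: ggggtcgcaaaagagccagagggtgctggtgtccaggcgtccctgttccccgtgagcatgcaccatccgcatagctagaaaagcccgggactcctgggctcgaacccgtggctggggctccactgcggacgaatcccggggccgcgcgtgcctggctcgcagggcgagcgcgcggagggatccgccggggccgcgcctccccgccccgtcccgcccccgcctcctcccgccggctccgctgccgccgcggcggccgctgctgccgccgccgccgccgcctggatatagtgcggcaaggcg
Chl1 held 2 matches, whose first bases lay at positions -189 and -145 relative to the start, and Cntn1 held 1 at -59. The L1cam and Ncam2 windows held none. Of all 32851 promoter windows of this length, 44% held a match, so that its presence sets no gene apart. GC content was 53.7% for Chl1 and 55.3% for Cntn1, against 67% for L1cam and 75.7% for Ncam2, with a median of 52.7% over all windows.

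On the deposited log2 scale, medians of the arrays ran from 6.13 to 6.20. No detection calls came with them. As a guide to background, the signals of 44 probe sets for olfactory receptors had a 95th percentile between 5.14 and 5.46 over the arrays, and levels at or under it (5.46 for means) are called dim here. Prom1, and Sox2 if GFP reports it here as in similar mice, followed the sort only in part. Sox2 averaged 10.66 ± 0.12 in R3, 7.08 ± 0.61 in R2 and 4.19 ± 0.34 in R1 (SD, n = 3 each). Prom1 averaged 10.32 ± 0.19, 11.85 ± 0.04 and 7.43 ± 0.36 in the same gates (SD, n = 3 each). Sox2 thus also differed between the GFP-negative gates, where R2 stood 2.90 above R1 on the log2 scale. Prom1 also differed between the CD133-positive gates, with a change of -1.54 from R2 to R3. The reason for these differences was not tested. Dermal papilla markers followed the labels, with a mean level over 16 genes of 10.19 to 10.49 in R3, 9.48 to 9.63 in R2 and 8.18 to 8.43 in R1. The 17 measured Schwann cell and glial markers had a mean level of 8.35 to 8.58 in R3, 5.78 to 6.01 in R2 and 6.53 to 6.96 in R1, and the 12 endothelial markers of 5.97 to 6.40, 8.63 to 8.96 and 6.69 to 6.97. The 9 measured keratinocyte markers had a mean level of 7.23 to 8.09 in R3, 7.45 to 7.56 in R2 and 10.36 to 10.96 in R1. The excess of the 3' over the 5' end of beta-actin, a sign of RNA and amplification quality, was 0.15 ± 0.04 in R3, 0.16 ± 0.06 in R2 and 0.05 ± 0.01 in R1. For Gapdh the same excess was far larger, at 2.68 to 3.02 in R3, 2.57 to 2.85 in R2 and 2.63 to 2.97 in R1.

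Between R3 and R2, labelled as GFP-positive and GFP-negative papilla cells, 5 of the 10 genes were higher in R3 and 0 were lower (limma, adjusted p under 0.05). Of all genes, 1.97% were called higher and 3.06% lower (5.03% in all). Chl1, Ncam2, L1cam, Cntn1 and Cntn4 were the 5, and the high R3 level of Chl1 was known when the list was made. Without it, 4 of 9 were higher and 0 lower. These span all 3 families, while Ncam1, Nrcam, Nfasc, Cntn2 and Cntn3 did not pass. The median log2 change over the 10 genes, Chl1 included, was 0.86, against -0.01 over all genes. The R3 arrays lay above every R2 array for 7 genes, where arrays did not overlap in either direction for 22.7% of all genes.

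**Figure D1:**
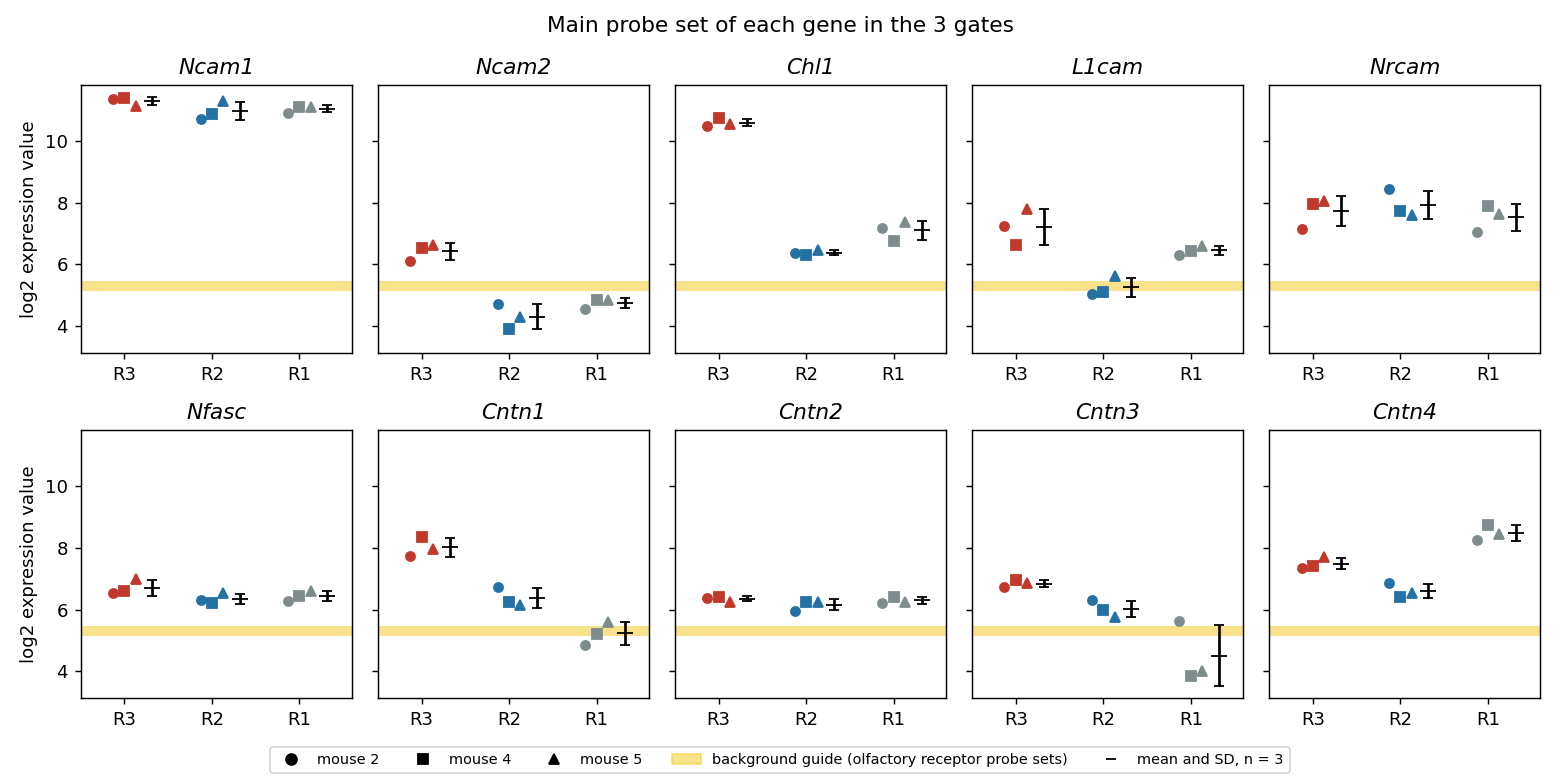
Log2 expression value of the main probe set of each gene on the 9 arrays, by gate (x axis) and mouse (symbol), with the mean and SD of 3 arrays in black and the range of the background guide (5.14 to 5.46) shaded. Chl1 stands between 10.49 and 10.73 in R3 and at or under 7.38 in the other gates, Cntn1 and Cntn3 are lowest in R1, and Cntn4 is highest in R1.

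Chl1, the close homolog of L1, stood at 10.49, 10.73 and 10.57 in the R3 arrays of mice 2, 4 and 5, against 6.36, 6.31 and 6.46 in R2 and 7.17, 6.76 and 7.38 in R1. Every R3 array lay far above the others, and every R2 array lay under every R1 array. R3 exceeded R2 by 18.6-fold (log2 change 4.22, standard error 0.17) and R1 by 11.3-fold (log2 change 3.49). Within mice the R3 to R2 difference was 4.12, 4.43 and 4.10. A pair of further probe sets was higher in R3 as well, by 4.19 and 3.60 on the log2 scale with R2 dim in both, and the fourth was dim in every gate.

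Ncam2, a relative of NCAM1 known from olfactory axons, had values of 6.12, 6.52 and 6.62 in R3, against 4.73, 3.91 and 4.30 in R2 and 4.55, 4.84 and 4.85 in R1. Its R3 arrays were all above the background guide and all others under it, so both folds rest on dim signals. Its R3 level exceeded R2 by 4.31-fold (log2 change 2.11, standard error 0.22, limma adjusted p = 0.000543, higher in 3 of 3 mice) and R1 by 3.19-fold (adjusted p = 0.000699). A second probe set that was above the guide in R3 had a log2 change of 2.07 over R2, where it was dim, and missed the threshold when all probe sets were tested singly (adjusted p = 0.0784).

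L1cam, the founding member of its family, had values of 7.24, 6.63 and 7.79 in R3, against 5.04, 5.11 and 5.62 in R2 and 6.31, 6.45 and 6.61 in R1. The gates did not overlap and ran in the order R3, R1, R2, although the R3 value of mouse 4 lay just above the highest R1 array. The R3 level exceeded that of R2 by 3.91-fold (log2 change 1.97, standard error 0.27, limma adjusted p = 0.00284, higher in 3 of 3 mice), and 2 of the 3 R2 arrays were dim. Its second probe set was dim in every gate.

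Cntn1, which joins axons to glia at the paranode, had values of 7.73, 8.35 and 7.97 in R3, 6.74, 6.25 and 6.15 in R2 and 4.86, 5.22 and 5.61 in R1. The gates formed 3 separate steps, with 1 R1 array just above the background guide and 2 dim. R3 exceeded R2 by 3.12-fold (log2 change 1.64, standard error 0.24, limma adjusted p = 0.00382, higher in 3 of 3 mice). Another probe set of Cntn1 rose by 2.33 over R2 (adjusted p = 0.000149 with all probe sets tested singly), and the third was dim.

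Cntn4, known from the wiring of olfactory and visual axons, had values of 7.36, 7.42 and 7.69 in R3, 6.85, 6.41 and 6.55 in R2 and 8.25, 8.75 and 8.45 in R1. It was the only one of the 10 genes called lower in both R3 and R2 than in R1. Its rise in R3 over R2 was small, 1.85-fold (log2 change 0.89, standard error 0.18, limma adjusted p = 0.0189, higher in 3 of 3 mice). This call was lost without the R2 array of mouse 4 (adjusted p = 0.0776) or mouse 5 (0.0599), without the R3 array of mouse 4 (0.0543) or mouse 5 (0.0591), and with the mean of its probe sets (0.109), within a range of 0.00979 to 0.109 over all alternatives.

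The 5 genes that did not pass between R3 and R2 differed in how tightly the arrays bound the change. Cntn2, known from axons and the glia around nodes of Ranvier, had a log2 change of 0.19 (95% interval -0.10 to 0.48). Its main probe set read the identical value of 6.26 on 4 of the 9 arrays, and its other 3 were dim. Nfasc, whose isoforms build nodes and paranodes, had 0.35 (interval -0.01 to 0.72), with all R3 arrays (6.53 to 6.99) just above the R2 arrays (6.21 to 6.52).

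Ncam1, the main carrier of polysialic acid, was bright and nearly level: 11.35, 11.38 and 11.13 in R3, 10.72, 10.89 and 11.31 in R2 and 10.92, 11.12 and 11.12 in R1. The R3 arrays overlapped those of R2, and the log2 change between them was 0.31 (interval -0.06 to 0.69, adjusted p = 0.365). All 7 of its probe sets were higher in R3 than in R2, by 0.31 to 1.07, but 0 of them passed when tested singly, with the lowest adjusted p at 0.0553. Against R1, 1 of the 7 passed (log2 change 1.14, adjusted p = 0.00657), and so did the mean over its probe sets (0.48, adjusted p = 0.0486), while the main probe set did not (0.24, adjusted p = 0.383).

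Nrcam, a nodal member of the L1 family, overlapped between all 3 gates, with 7.16, 7.94 and 8.05 in R3, 8.44, 7.72 and 7.59 in R2 and 7.06, 7.89 and 7.63 in R1. The log2 change of R3 over R2 was -0.20 with an interval of -0.90 to 0.50. Its second probe set above the guide had the opposite sign (0.89, adjusted p = 0.148). Cntn3, known from hippocampal and cerebellar neurons, had a change of 0.83 (standard error 0.40, adjusted p = 0.315), although its R3 arrays (6.72 to 6.96) lay above its R2 arrays (5.77 to 6.30). Its SD was 0.12 in R3, 0.27 in R2 and 0.99 in R1. The gene passed when the R1 array of mouse 2 was left out (adjusted p = 0.0237) and with the 6 R3 and R2 arrays fitted alone (0.0396).

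**Figure D2:**
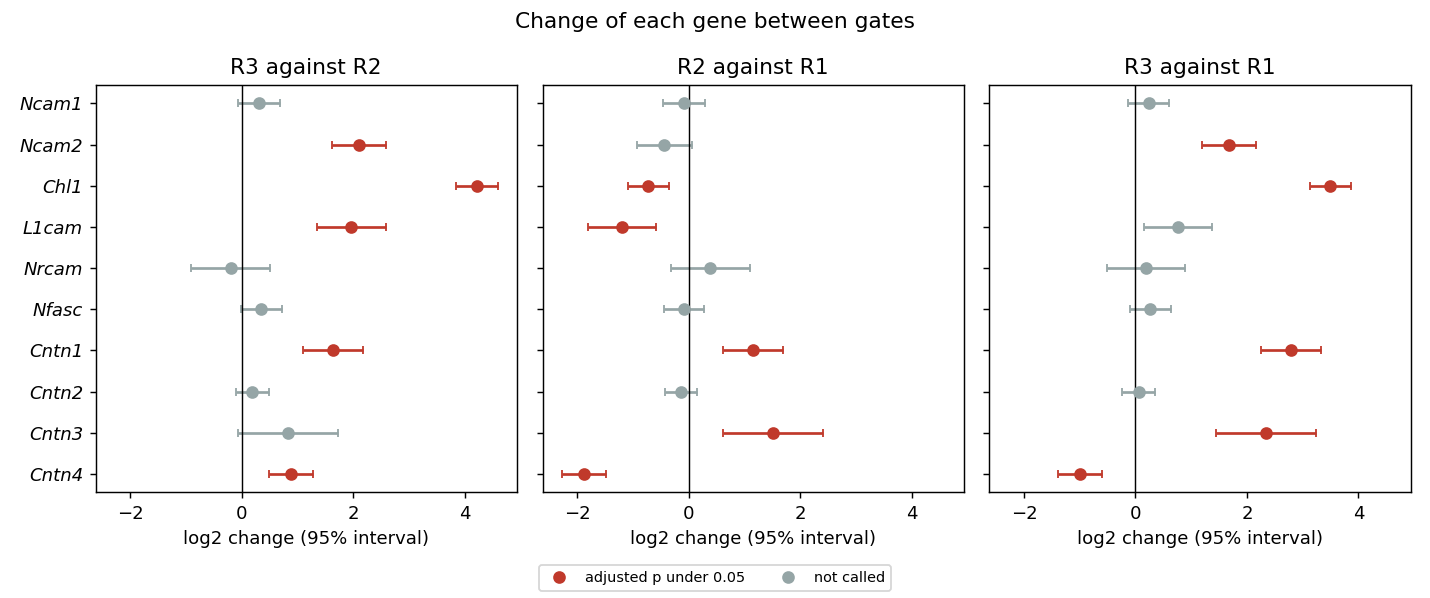
Log2 change of the main probe set of each gene between gates (points) with 95% intervals (bars) from the limma fit over 9 arrays, with red for an adjusted p under 0.05 (the Chl1 points of R3 are a description only). The red points of R3 against R2 run from 0.89 (Cntn4) to 4.22 (Chl1), whereas those of R2 against R1 lie on both sides of 0.

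Between R2 and R1, labelled as GFP-negative papilla cells and the dermal pool, 5 of the 10 genes were called. Of these, 2 were higher and 3 lower in R2, where 6.89% and 6.16% of all genes were (13.1% in all). The arrays did not overlap for the same 5 genes, against 30.8% of all genes. Cntn1 and Cntn3 were the higher ones, and Chl1, L1cam and Cntn4 the lower ones. Cntn1 was 2.22-fold higher (log2 change 1.15, standard error 0.24, adjusted p = 0.0122, higher in 3 of 3 mice). Cntn4 was 3.69-fold lower, falling by 1.88 on the log2 scale (standard error 0.18, adjusted p = 0.000141, lower in 3 of 3 mice). These comparisons and those of R3 with R2 share the R2 arrays.

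The other 3 calls were less firm, and 2 members in place of 5 were called without the R2 array of mouse 2 or 4 or the R1 array of mouse 5, and 3 without the R1 array of mouse 4. L1cam fell by 1.20 on the log2 scale in R2 (adjusted p = 0.0185), with R2 near background, and Chl1 by 0.72 (adjusted p = 0.019), each lower in 3 of 3 mice. The L1cam call was lost without the R2 array of mouse 2 (adjusted p = 0.0672) or mouse 4 (0.068), or the R1 array of mouse 4 (0.0523) or mouse 5 (0.0581). The Chl1 call was lost without the R2 array of mouse 2 (0.0577) or mouse 4 (0.069), or the R1 array of mouse 2 (0.0616) or mouse 5 (0.0555). Cntn3 had values of 6.30, 5.98 and 5.77 in R2, against 5.64, 3.86 and 4.02 in R1, where mouse 2 stood apart from the dim values of the others. Its change of 1.51 (adjusted p = 0.0354) kept its call without that R1 array of mouse 2 but lost it without any other array (adjusted p from 0.0502 to 0.111) and with the R2 and R1 arrays fitted alone (0.0779).

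Between R3 and R1, labelled as GFP-positive papilla cells and the dermal pool, 4 of the 10 genes were higher and 1 lower in R3. Of all genes, 7.9% were higher and 10.8% lower (18.7% in all). The arrays did not overlap for 7 of the 10 genes, against 34.4% of all genes. Chl1, Ncam2, Cntn1 and Cntn3 were higher and Cntn4 lower, and without Chl1, given here as a description, 3 of 9 were higher and 1 lower. Cntn1 was 6.91-fold higher (log2 change 2.79, standard error 0.24, adjusted p = 5.99e-05) and Cntn3 5.06-fold (log2 change 2.34, standard error 0.40, adjusted p = 0.00311), both in 3 of 3 mice and both with 2 of 3 R1 arrays dim. Cntn4 fell by 0.99 in R3 (standard error 0.18, adjusted p = 0.00382, lower in 3 of 3 mice). L1cam, at 0.77 above R1, missed the threshold (adjusted p = 0.084), and passed with the mouse as a replicate block (0.0337) or without the R3 array of mouse 4 (0.0181).

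**Figure D3:**
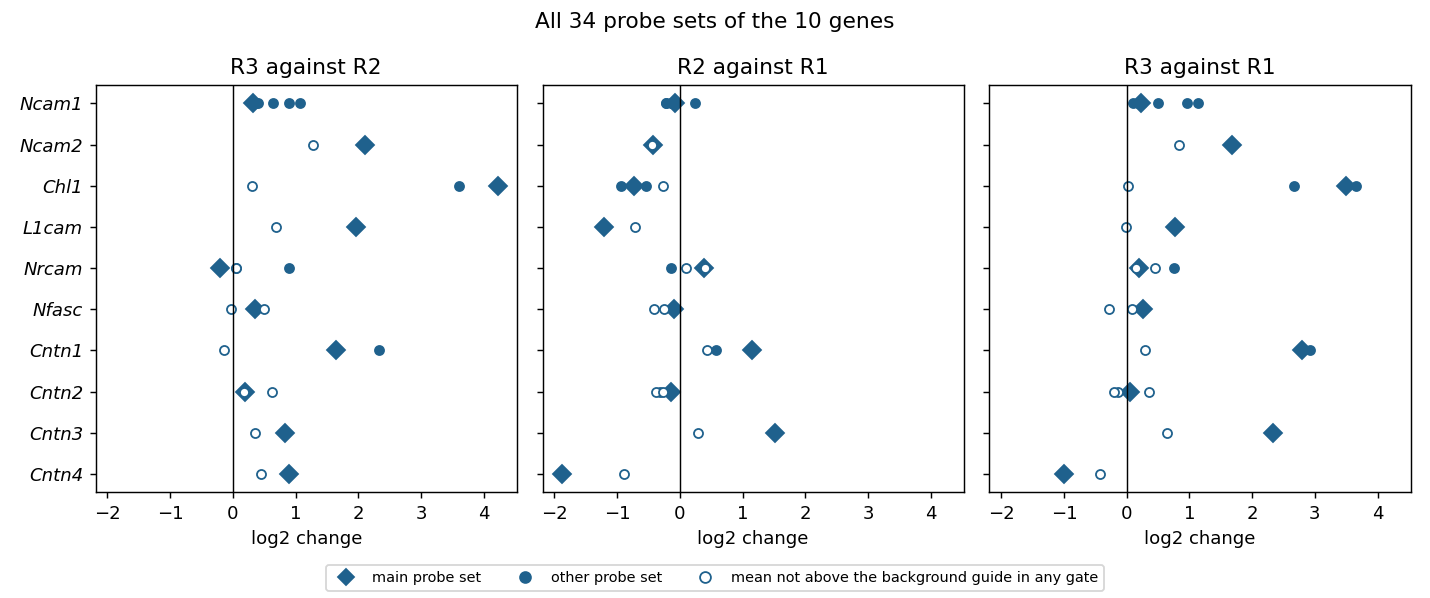
Log2 change of all 34 probe sets of the 10 genes between gates, with diamonds for main probe sets and open symbols for the 13 whose mean was not above the background guide in any gate. Of the 21 others, 20 are higher in R3 than in R2, 5 are higher in R2 than in R1 and 20 are higher in R3 than in R1.

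The probe sets of a gene share its transcripts and are not independent. Of the 21 that were above the guide in at least 1 gate, the single one with a lower value in R3 than in R2 was the main probe set of Nrcam, and the single one with a lower value in R3 than in R1 was that of Cntn4.

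Genes with the closest profiles were sought among 12505 genes above the guide, by the root-mean-square difference of mean-centred log2 values over the 9 arrays. The closest to Chl1 were Plekhb1 (0.25), Mlip (0.28) and Nkain2 (0.30), which is small beside the spread of Chl1 itself (SD over 9 arrays 1.96). Ncam2 was matched most closely by Adgrg6 (0.14), an adhesion receptor known for its part in Schwann cell myelination, followed by Slc35f1 (0.24) and the BMP and Wnt antagonist gene Sostdc1 (0.24). L1cam was nearest to Met, the receptor of hepatocyte growth factor (0.31), Scd1 (0.35) and Plaat3 (0.38). Cntn1 was nearest to Ncoa7 (0.22), Sned1 (0.29) and Sulf1, a heparan sulfate sulfatase (0.33). Cntn3 had the loosest matches, with Msantd1 at 0.36, Gcnt2 at 0.37 and Rasa4 at 0.39. Cntn4 was nearest to Gcnt1 (0.16), the aryl hydrocarbon receptor gene Ahr (0.22) and the cadherin gene Cdh4 (0.25).

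Of 25 other measured immunoglobulin adhesion genes of the nervous system, 7 were higher and 1 lower in R3 than in R2 (28% and 4%, against 1.97% and 3.06% of all genes), with a median log2 change of 0.17. This list and the partner and marker lists below were chosen with earlier results of these data known. Their shares are therefore a description. Mag, an adhesion protein of myelinating glia, was 12-fold higher (6.62, 6.60 and 6.59 in R3, against 2.75, 3.54 and 2.77 in R2, adjusted p = 2.36e-05), with R2 dim. Cadm4 and Cadm1, adhesion molecules that link glia and axons, were 5.63-fold and 3.91-fold higher (adjusted p = 0.000896 and 0.000981), and Negr1, a lipid-anchored member of the IgLON family, 3.48-fold (0.00397). Thy1, known from fibroblasts as well as neurons, fell by 0.81 on the log2 scale (0.00491).

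Between R2 and R1, 1 of these 25 genes was higher and 6 lower (4% and 24%, against 6.89% and 6.16% of all genes), with a median of -0.36. The share of higher genes was thus under that of all genes. The single higher gene, Mcam, known from vessels, was 1.64-fold higher (adjusted p = 0.0175; named after its values were seen), and the count of higher genes was 0 without the R1 array of mouse 2 or the R2 array of mouse 2 or mouse 4. The IgLON genes Lsamp and Opcml fell by 1.44 and 1.39 (adjusted p = 0.00844 and 0.00938), to dim means in R2, and Cadm1 by 1.20 (0.00782). Between R3 and R1, 6 were higher and 3 lower (24% and 12%, against 7.9% and 10.8% of all genes). Cntn5 and Cntn6, the remaining contactins, were not called in any comparison (adjusted p from 0.101 to 0.928).

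Among 33 measured binding partners, anchors, sheddases and polysialic acid enzymes, 2 were higher and 4 lower in R3 than in R2 (6.06% and 12.1%, against 1.97% and 3.06% of all genes), with a median of 0.06. Ptprz1, a receptor phosphatase that binds contactin-1, had values of 7.90, 8.52 and 8.25 in R3, against 6.38, 6.40 and 5.72 in R2 and 5.82, 4.72 and 5.27 in R1. R3 exceeded R2 by 4.18-fold (log2 change 2.06, standard error 0.30, adjusted p = 0.00353) and R1, where 2 of 3 arrays were dim, by 7.75-fold (0.00015). Ank3, the ankyrin-G anchor of the L1 family, exceeded R2 in R3 by 2.58-fold (adjusted p = 0.00644). Its means were 9.04 in R3, 7.67 in R2 and 8.54 in R1. The fall of Ank3 in R2 against R1 (log2 change -0.88, outside the naming rule) was called, but 5 alternatives lost this call (adjusted p up to 0.103). Sema3a, a repellent of axons whose receptor complex includes L1, fell by 1.34 (0.00398), and its receptor gene Nrp1 by 1.02 (0.0285).

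St8sia4 and St8sia2 encode the enzymes that place polysialic acid on NCAM1, and both were highest in R2. St8sia4 had values of 6.58, 6.60 and 7.05 in R3, against 9.09, 8.42 and 8.84 in R2 and 7.49, 8.11 and 7.89 in R1, so that the 3 gates did not overlap. R3 was 4.11-fold under R2, and the level fell by 2.04 on the log2 scale (standard error 0.22, adjusted p = 0.000725), and R3 was 2.12-fold under R1 (0.00798). St8sia2 had 7.44, 7.81 and 7.87 in R3, against 8.53, 8.59 and 8.62 in R2 and an R1 mean of 7.71 ± 0.37 (SD, n = 3). Its fall of 0.87 in R3 against R2 (adjusted p = 0.0328, outside the naming rule) was lost without any one R2 array or without the R3 array of mouse 2 or mouse 4 (adjusted p from 0.0767 to 0.107), and after quantile normalization again (0.0653). The Nrp1 fall was likewise lost without any one R2 array or without the R3 array of mouse 2 or mouse 4 (0.0549 to 0.101), and the count of lower partners was then 2 in place of 4.

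Between R2 and R1, 4 of the partners were higher and 2 lower (12.1% and 6.06%, against 6.89% and 6.16% of all genes), so that the share of lower partners was that of the background. Gfra1, a GDNF receptor that can also work with NCAM1, was 8.12-fold higher in R2 (adjusted p = 4.84e-05) and 11.3-fold higher in R3 (1.27e-05) than in R1. Its probe set read the identical value of 9.67 on the R2 arrays of mice 2 and 4 and the R3 array of mouse 5. Fgfr1, a growth factor receptor that NCAM1 and L1 can engage, was 2.06-fold higher in R2 than in R1 (0.00372). St8sia4 and St8sia2 were 1.94-fold and 1.83-fold higher in R2 than in R1 (0.0209 and 0.0166). The St8sia4 call was lost without the R1 array of mouse 2 (0.0699) or the R2 array of mouse 2 (0.074) or mouse 5 (0.0609), and the St8sia2 call without the R2 array of mouse 4 (0.0545) or mouse 5 (0.0503). Without the R2 array of mouse 5, 2 partners in place of 4 were higher in R2 than in R1. Without the R1 array of mouse 2 or 5 or the R2 array of mouse 2 or 4, 1 in place of 2 was lower. Between R3 and R1, 5 partners were higher and 7 lower (15.2% and 21.2%, against 7.9% and 10.8% of all genes), and 3 were higher without the R1 array of mouse 4.

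**Figure D4:**
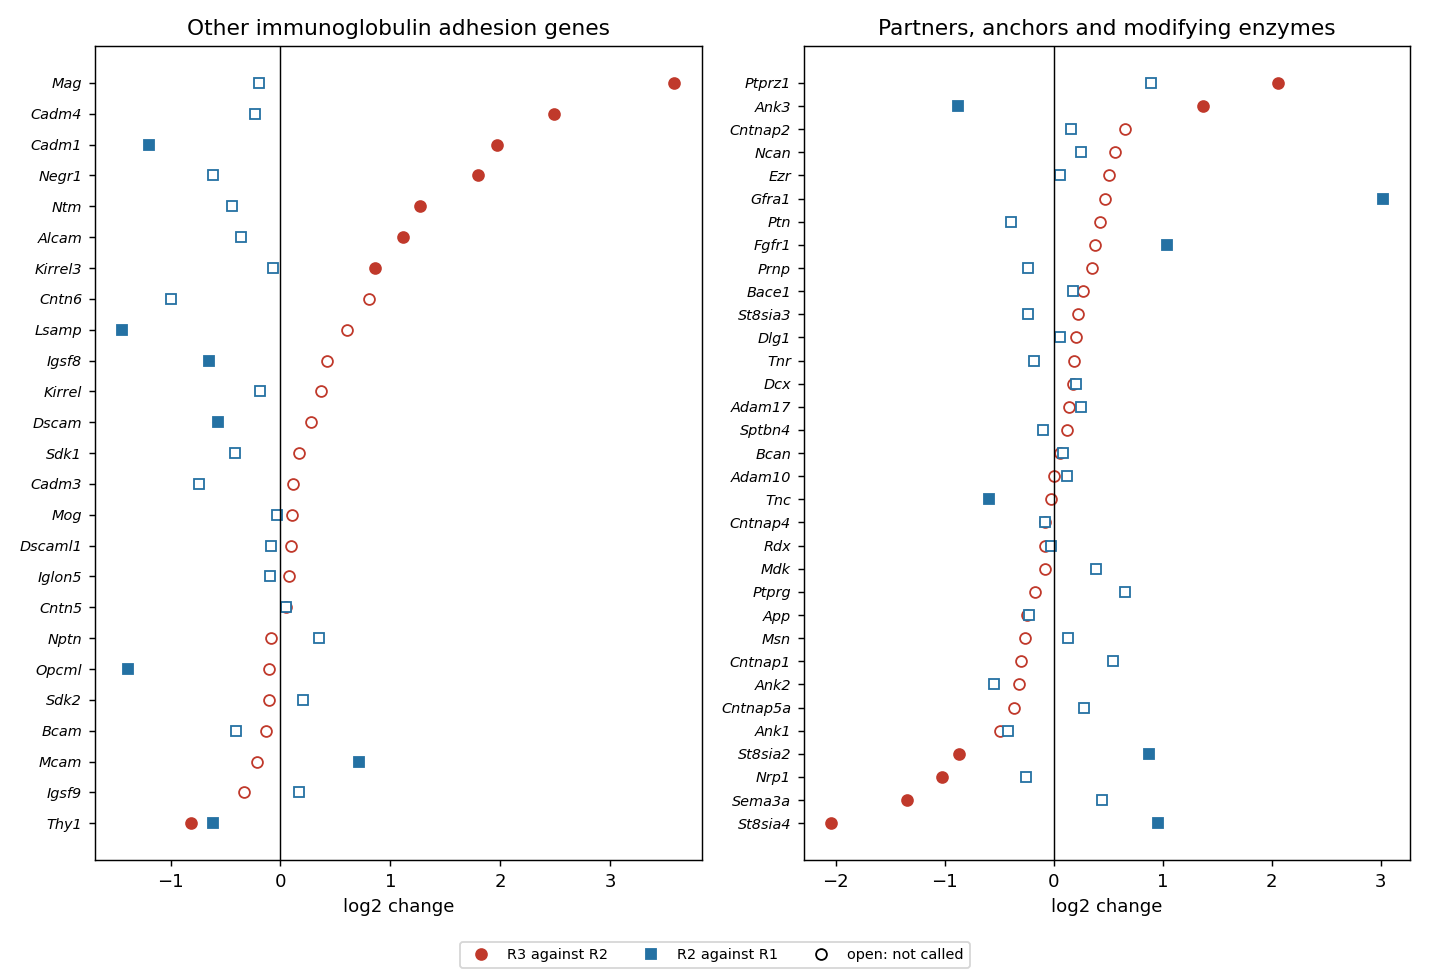
Log2 change of 25 other immunoglobulin adhesion genes (left) and 33 partners, anchors and modifying enzymes (right), with circles for R3 against R2, squares for R2 against R1 and filled symbols for an adjusted p under 0.05. Both comparisons share the R2 arrays. On the right, St8sia4 lies at -2.04 in R3 against R2 and at 0.95 in R2 against R1.

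Markers of several cell types also differed between the gates. Of all genes, 1.97% were higher and 3.06% lower in R3 than in R2. The shares were 6.89% and 6.16% in R2 against R1, and 7.9% and 10.8% in R3 against R1. Of the 17 measured Schwann cell and glial markers, 13 (76.5%) were higher and 0 lower in R3 than in R2. In R2 against R1, 0 were higher and 7 (41.2%) lower, and in R3 against R1, 10 (58.8%) were higher and 0 lower. The count of 7 was 4 without the R1 array of mouse 2 or mouse 5. The summed glial list ran in the order R3, R1, R2, and so did the means of Chl1, L1cam and Ncam2. The R2 and R1 arrays of Ncam2 overlapped, however, and their difference was not called (limma adjusted p = 0.244). Ncam1, Nfasc and Cntn2, whose main probe sets were not called in any comparison, had means in this order too. Cntn1 and Cntn3 ran in the order R3, R2, R1, as did the mean level of the 16 dermal papilla markers. Of these 16, 7 were higher and 1 lower in R3 than in R2, and 9 higher and 0 lower in R2 than in R1. Between R3 and R1, 14 of the 16 were higher and 0 lower. The 7 papilla markers higher in R3 than in R2 became 4 to 8 when 1 array was left out. Cntn4 ran in the order R1, R3, R2. Among glial markers, Cdh19 of Schwann cell precursors exceeded R2 in R3 by 14.8-fold (adjusted p = 1.54e-05), with R2 dim, and Gfap alone was dim on all R3 arrays. Of 11 neuronal markers, 0 were higher and 1 lower in R3 than in R2 (2 lower without the R3 array of mouse 5), and 4 of them (Nefh, Snap25, Uchl1 and Elavl4) were dim on all R3 arrays. Between R2 and R1, 3 of the 11 (27.3%) were higher in R2 and 1 lower, with 1 to 3 higher when 1 array was left out. All 12 endothelial markers were lower in R3 than in R2, and 11 were higher in R2 than in R1. Of 8 melanocyte, 9 muscle and 7 Merkel cell markers, 0 were higher in R3 than in R2. Against R1, 6 melanocyte markers were lower in R2 and 7 in R3, and 0 were higher. Muscle markers lower than in R1 numbered 3 in R2 (1 to 3 with 1 array left out) and 5 in R3, and 0 were higher. In R2, 2 Merkel cell markers were higher than in R1 (0 to 2 with 1 array left out) and 0 lower. All 9 measured keratinocyte markers were lower in R2 and in R3 than in R1. Of 9 dermal fibroblast markers, 3 were lower in R3 than in R2 and 5 were lower in each of R3 and R2 than in R1. Those counts of 5 were 8 with the mean of all probe sets or a trend with robust variance. The part of these cell types in the changes of the 10 genes was not tested.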

How the data were processed

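RNA of 3 gates from 3 mice was measured on 9 one-colour arrays, 1 per mouse and gate. The labels' protocols name a PureLink kit for isolating RNA, WT-Ovation Pico amplification and biotin labelling. The authors deposited log2 values for each probe set, for which the submitters' processing notes name RMA. The labels give neither its version nor whether all arrays were normalized jointly. Quantile steps and amplification can compress folds. The precision is limited by 3 arrays per gate.

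Symbols came from the annotation of the platform. Of 45101, 34945 had 1 symbol and were not controls, 932 had several symbols and 9211 had none. The brightest probe set over 9 arrays stood for each gene. Gates were compared with limma 3.58.1 (R 4.3.3), with 1 coefficient per gate over 9 arrays, no mouse block, no filter, and Benjamini-Hochberg adjustment over 18193 genes. The threshold was an adjusted p of 0.05. Each standard error is moderated (9.49 total degrees of freedom). The script was tested on simulated data. All p-values in the report are from this test unless another fit is named.

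The members, gene lists and naming rule were chosen with earlier results of these data known. All 10 members were named, and of each other list up to 5 called genes per comparison with the lowest p. The 3 closest non-member profiles were named for each called member, skipping clone-type symbols. Listed genes without a probe set to themselves are not analysed. Arrays with the same number come from the same mouse, per the labels, and are paired. Their deviations from gate means correlated at 0.007 to 0.177 within mice and at -0.157 to 0.041 between mice. The alternatives were a mouse block (fixed or random), leaving out each array, the 6 arrays of a comparison alone, 2 rescalings, 2 treatments of probe sets, a filter keeping genes whose mean exceeded that of the median gene, and a trend with robust variance. Applying them to genes and counts of the other lists was decided after seeing the data. Promoter sequences are from RefSeq (GRCm38.p6), which served otherwise for names and gene order alone. Tables and plots used Python 3.11.15, pandas 2.3.3 and matplotlib 3.10.9.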

Additional observations from a re-analysis of the deposited data

How the results depend on the processing

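Under the alternatives, 490 values of the 10 genes kept their direction and their side of the threshold, 22 kept their direction and lost the call, 5 gained a call and 5 changed sign. The sign changes concern Nrcam and Ncam1, which were not called in these comparisons. Nrcam between R3 and R2 was 0.20 with the mean of its probe sets and ran from -0.36 to 0.080 when 1 array was left out, and between R3 and R1 from -0.044 to 0.47. Ncam1 between R2 and R1 ran from -0.25 to 0.0485. Leaving out 1 array gave 4 to 6 called members between R3 and R2, 2 to 4 between R2 and R1 and 5 to 6 between R3 and R1, where all arrays gave 5 each. The member counts that involve R3 include Chl1, whose high R3 level was known beforehand. With genes above the median gene only, 2 members were called in each comparison, since 4 of the 10 genes were in that fit. Glial markers higher in R3 then numbered 8 against R2 and 6 against R1. With the mouse as a fixed or random replicate block, 5 members were called between R3 and R2 and 5 between R2 and R1, and no call other than that of L1cam between R3 and R1 (adjusted p = 0.0337, fixed block) changed. Over all genes, leaving out 1 array gave 582 to 841 calls between R3 and R2 (915 with all arrays; 596 without the R2 array of mouse 2, 582 without that of mouse 4 and 592 without the R3 array of mouse 4), 1554 (without the R2 array of mouse 4) to 2418 between R2 and R1 (2375) and 2519 to 3240 between R3 and R1 (3406). With all probe sets tested singly, 3743 and 5623 were called between R2 and R1 and between R3 and R1, where more features were tested. Of 216 counts of the other adhesion and partner lists, 20 moved by more than 1.5 times. The cause of the lost calls was not tested, and each fit without 1 array had fewer samples. Levels near the background guide (Ncam2 in R2 and R1, L1cam in R2, Cntn1 and Cntn3 in R1) limit the folds built on them.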
